A study of Mus musculus with 16 samples.

Results

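Of 29470 merged H3K4me2 peaks outside the mitochondrial genome, 632 (2.14%) were strongest in mTEC-II alone. They were chosen by their values: the mean of the 2 mTEC-II libraries had to be at least 30 tags per 10000000 and at least 2 times the highest mean of mTEC-I, mTEC-III and mTEC-IV. The mTEC-II level of these peaks and its ratio to the other populations are therefore given as a description, without a test. By the same rule 133 peaks were strongest in mTEC-I alone, 589 in mTEC-III alone and 3025 in mTEC-IV alone. The study profiled H3K4me2 in medullary thymic epithelial cells (mTEC) sorted from thymi of C57BL/6 mice, with 2 libraries for each of 4 populations. All 4 were gated as CD45-negative and Epcam-positive. mTEC-I cells were also Itgb4-positive with low MHC class II, mTEC-II cells had high MHC class II, mTEC-III cells were Ly6D-positive, and mTEC-IV cells were L1cam-positive and Itgb4-negative with low MHC class II. The labels describe the sorted cells as enriched for each population, give no genetic change or treatment, and do not say whether the replicates came from separate mice. The sources used here give neither the age of the mice nor how many were pooled. The p-values therefore measure the spread between these samples alone, which may be technical.

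H3K4me2, the dimethylated form of lysine 4 of histone H3, marks promoters and enhancers, including enhancers that are primed before they act. Medullary thymic epithelial cells show developing T cells the proteins of other tissues, and the MHC class II high cells among them include those that carry Aire, a regulator that turns on many tissue-restricted genes. These cells also receive signals through TNF family receptors that act on NF-kappaB, and they present antigen with MHC class II and costimulatory ligands.

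The libraries held between 1702103.5 and 15412132.5 tags, and 31.9% to 35.4% of these fell in merged peaks. Both mTEC-II libraries were the deepest, and the shallowest was mTEC-I replicate 2, in which a single tag equals a level of 5.88. Levels below are in tags per 10000000 unless another scale is named. At the MHC class II genes, whose products set the gate of mTEC-II, the summed level was highest in the mTEC-II libraries. This sum includes the chosen H2-Eb2 peak, which the rule picked for its level in mTEC-II. That peak had 315.34 and 349.14 in mTEC-II and 51.07 and 41.13 in mTEC-I, so the sum does not test the gate. The summed level of the 19 peaks of this list was 4520 and 4680 in the mTEC-II libraries, 4230 and 4070 in mTEC-I, 3530 and 3990 in mTEC-III, and in mTEC-IV 2780 and 2730.

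The start sites covered by these peaks can be read at the sequence level. In 41 of the 632 peaks the window from 250 bases before to 50 bases after the nearest start site lay inside the peak. RefSeq promoters of build GRCm38.p6 were matched by gene for 34 of these, and 25 of those genes had 1 promoter in the table. The peaks themselves are placed on build mm9, so the promoters were matched by gene and not by position. Of the 25, 7 are printed 5′ to 3′ on the strand of the gene. They were picked after their values were seen, because each holds a motif that stood more often in these promoters than in all promoters. Capitals mark a match to the NF-kappaB consensus on either strand in Gpr132, Gsdma3, Ip6k3 and Npsr1, and TATAAA in Vmo1, Mstn and Pln.
Gpr132: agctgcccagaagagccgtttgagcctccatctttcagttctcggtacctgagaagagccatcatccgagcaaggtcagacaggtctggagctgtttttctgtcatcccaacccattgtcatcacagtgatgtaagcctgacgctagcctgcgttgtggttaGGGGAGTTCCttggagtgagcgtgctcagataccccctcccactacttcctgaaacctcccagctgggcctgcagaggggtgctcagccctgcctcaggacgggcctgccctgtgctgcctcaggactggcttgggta
Gsdma3: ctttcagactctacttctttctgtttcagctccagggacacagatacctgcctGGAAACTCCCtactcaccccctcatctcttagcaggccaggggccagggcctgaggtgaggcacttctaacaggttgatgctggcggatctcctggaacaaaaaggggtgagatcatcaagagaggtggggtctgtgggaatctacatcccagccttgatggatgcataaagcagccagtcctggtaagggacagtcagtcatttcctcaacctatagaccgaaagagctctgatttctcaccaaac
Ip6k3: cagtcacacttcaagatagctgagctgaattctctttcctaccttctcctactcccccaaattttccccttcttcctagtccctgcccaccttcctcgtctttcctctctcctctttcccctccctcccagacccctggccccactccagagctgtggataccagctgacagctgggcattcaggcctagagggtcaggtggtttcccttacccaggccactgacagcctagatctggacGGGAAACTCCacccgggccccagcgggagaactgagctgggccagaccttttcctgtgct
Npsr1: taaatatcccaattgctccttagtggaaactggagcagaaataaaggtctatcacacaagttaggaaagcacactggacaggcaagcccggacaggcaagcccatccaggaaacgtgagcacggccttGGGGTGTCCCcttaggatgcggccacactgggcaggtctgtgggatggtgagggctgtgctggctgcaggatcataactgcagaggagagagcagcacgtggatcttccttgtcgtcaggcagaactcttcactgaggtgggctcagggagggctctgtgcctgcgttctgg
Vmo1: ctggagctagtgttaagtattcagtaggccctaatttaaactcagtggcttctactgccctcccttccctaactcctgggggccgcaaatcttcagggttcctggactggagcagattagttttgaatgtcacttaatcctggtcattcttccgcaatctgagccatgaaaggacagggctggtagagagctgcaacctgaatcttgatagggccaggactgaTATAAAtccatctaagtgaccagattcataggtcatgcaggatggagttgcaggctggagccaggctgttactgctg
Mstn: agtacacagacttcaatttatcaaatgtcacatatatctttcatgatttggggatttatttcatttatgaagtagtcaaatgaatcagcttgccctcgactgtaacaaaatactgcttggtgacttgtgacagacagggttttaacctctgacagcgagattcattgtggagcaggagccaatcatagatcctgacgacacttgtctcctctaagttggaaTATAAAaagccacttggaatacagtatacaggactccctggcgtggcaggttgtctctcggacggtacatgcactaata
Pln: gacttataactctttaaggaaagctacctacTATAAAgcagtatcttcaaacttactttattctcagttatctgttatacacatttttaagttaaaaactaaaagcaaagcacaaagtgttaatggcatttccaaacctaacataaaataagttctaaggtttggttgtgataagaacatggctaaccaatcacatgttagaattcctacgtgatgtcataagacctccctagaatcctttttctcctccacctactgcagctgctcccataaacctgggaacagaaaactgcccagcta

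The Gpr132 promoter lies at chr12:112860867-112861166 on the minus strand, Gsdma3 at chr11:98626099-98626398 on the plus strand, Ip6k3 at chr17:27167715-27168014 on the minus strand and Npsr1 at chr9:24097768-24098067 on the plus strand. The Vmo1 promoter lies at chr11:70514567-70514866 on the minus strand, Mstn at chr1:53061390-53061689 on the plus strand and Pln at chr10:53337436-53337735 on the plus strand. Gpr132 encodes a G protein-coupled receptor of immune cells, Gsdma3 a gasdermin of skin and gut epithelium, Ip6k3 an inositol phosphate kinase and Npsr1 the receptor of neuropeptide S. Vmo1 encodes a protein named after the outer vitelline membrane of the egg, Mstn the muscle growth inhibitor myostatin, and Pln phospholamban, a regulator of the calcium pump of heart muscle.

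These promoters were poor in CpG. The median ratio of observed to expected CpG was 0.25 in the 25 promoters, against 0.77 in 7751 promoters whose start site lay in another merged peak and 0.37 in all 22862 promoters of genes with 1 entry. It was at least 0.6 in 3 of the 25 (12%), against 75% and 35.7%. The median GC content was 52.3%, 61.7% and 52.3%. The NF-kappaB consensus, searched on both strands like every motif, stood in 7 of the 25 (28.0%), against 10.8% of promoters in other peaks and 8.01% of all. TATAAA stood in 5 (20%), against 6.94% and 14.8%. CCAAT stood in 12 (48.0%, against 38.6% and 38.2%), TGANTCA in 3 (12%, against 4.41% and 7.98%) and TGTGGT in 5 (20%, against 11.7% and 17.1%). GGAAGT stood in 6 (24%, against 27.1% and 24.3%) and GAAANNGAA in 4 (16%, against 6.82% and 8.62%). No motif contains another, although matches can overlap in a promoter. A match is a description of the letters in this window, and 25 promoters are too few to order the motifs.

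In the 632 peaks the mTEC-II mean ran from 30.1 to 426, with a median of 51.4. It was at least 100 in 101 peaks and at least 300 in 6. The median level of the same peaks was 13 in mTEC-I, 17.8 in mTEC-III and 11.4 in mTEC-IV. Over all 29470 peaks the population medians lay between 75 (mTEC-III) and 89.9 (mTEC-IV), with 80.3 in mTEC-II, so the chosen peaks were lower than the typical peak in mTEC-II too. The ratio of mTEC-II to the highest other population had a median of 2.56 and a maximum of 8.13, and it was at least 3 in 193 peaks and at least 4 in 63.

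**Figure D1:**
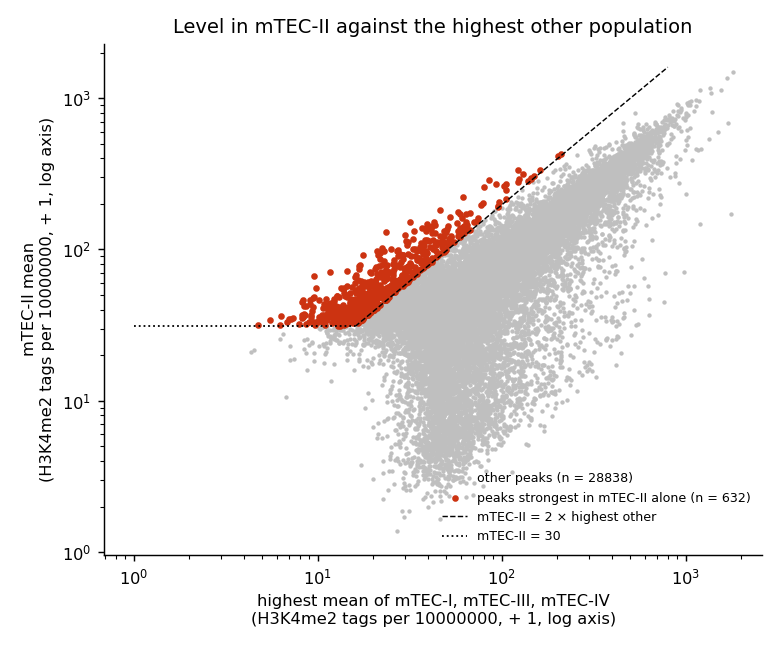
Each point is a merged peak, with the mTEC-II mean on the vertical axis against the highest mean of the other 3 populations on the horizontal axis, both in H3K4me2 tags per 10000000 plus 1 on log axes. The 632 chosen peaks (red) lie above a level of 30 (dotted) and a ratio of 2 (dashed), next to 28838 other peaks (grey) without a gap between them.

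The thresholds cut through a continuous spread. Just inside the level of 30 stood the peaks near Fam49b at 30.08, Asic3 at 30.31 and Fam209 at 30.45, and just outside it those near Tfeb at 29.98, Srbd1 at 29.85 and Med10 at 29.83. At the ratio of 2, the peak near Tex14 (96.77 in mTEC-II, 48.34 in mTEC-IV) was just inside. The peak near Rcsd1 (126.6 in mTEC-II, 63.38 in mTEC-III) was just outside.

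The next highest population was mTEC-III in 379 of the 632 peaks (60%), mTEC-I in 167 (26.4%) and mTEC-IV in 86 (13.6%). Among all 5075 peaks with the highest mean in mTEC-II these shares were 38.4%, 33.5% and 28.1%. Depth limits the readings below mTEC-II: 383 of the chosen peaks had 3 tags or fewer in mTEC-I replicate 2 and 92 had none there. In mTEC-I replicate 1, 4 had none, in the mTEC-IV libraries 7 and 3, and in the mTEC-II and mTEC-III libraries 0. Where no tag was counted, the level may still be up to 17.6 in mTEC-I replicate 2, 4.64 in mTEC-I replicate 1, and 3.30 and 3.58 in the mTEC-IV libraries (3 tags). These limits cover counting error only.

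All 632 peaks had both mTEC-II libraries above all 6 others. Among all peaks 10.2% did, but the rule read these libraries, so nothing follows from the count. A stricter reading, both mTEC-II libraries at least 2 times the highest of the 6 other libraries, held for 341. The rule was also applied to the 4 libraries of 1 replicate number alone and the chosen peaks were read in the other 4. The merged peaks come from lists with replicates combined, so the other 4 libraries had a part in which peaks exist, and these readings are a description. The replicate 1 libraries chose 678 peaks, with a median ratio of 2.64. In the replicate 2 libraries their median ratio was 2.13, mTEC-II was highest in 664 (97.9%, against 16.8% of all peaks) and it was at least 2 times each other population in 379 (55.9%, against 2.15%). The replicate 2 libraries chose 571 peaks, with a median ratio of 2.56. In the replicate 1 libraries their median was 2.45, mTEC-II was highest in 557 (97.5%, against 18% of all peaks) and at least 2 times each other population in 384 (67.3%, against 2.53%). Without reading mTEC-I in the other replicate, an alternative added after the data were seen, the shares were 455 of 678 (67.1%) and 449 of 571 (78.6%). This criterion is easier to meet and its share over all peaks was not computed, so the rise is not read as closer agreement.

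**Figure D2:**
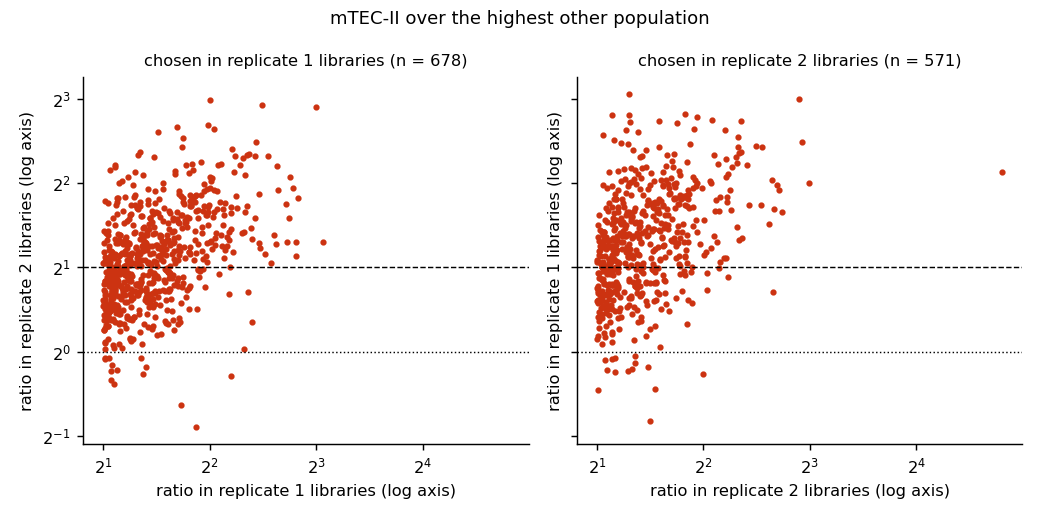
Each point is a peak chosen by the rule in the 4 libraries of replicate 1 (left, 678 peaks) or replicate 2 (right, 571 peaks). The horizontal axis gives the ratio of mTEC-II to the highest other population where it was chosen and the vertical axis the same ratio in the other 4 libraries, both on log axes. There 379 and 384 peaks lie at or above 2 (dashed), and most others lie between 1 (dotted) and 2.

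The strongest of these peaks was at the 3′ end of Swap70, which encodes a signalling protein of B cells and mast cells (chr7:117421293-117433003, mm9). Its level was 418.5 and 433.18 in the mTEC-II libraries, 178.75 and 196.82 in mTEC-I, 200.6 and 216.09 in mTEC-III, and in mTEC-IV 105.02 and 121.28. It combined a high level in every population with a ratio close to the threshold, 2.04. A peak 45356 bases from the start of 1810006J02Rik (chr1:100067232-100079568) had 424.99 and 407.63 in mTEC-II and only 54.17 and 41.13 in mTEC-I, with 165.91 and 238.46 in mTEC-III, then 168.25 and 140.99 in mTEC-IV. In both peaks the mTEC-II libraries lay close together and, as in each of the 632, clear of the rest.

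Among the 10 peaks with the highest mTEC-II level were also introns of genes with unlike functions. The intronic peak of H2-Eb2, a beta chain of MHC class II (chr17:34461773-34468043), had 315.34 and 349.14 in mTEC-II, with 112.29 and 131.89 in mTEC-III, 97.32 and 111.72 in mTEC-IV, and 51.07 and 41.13 in mTEC-I. The order mTEC-II, mTEC-III, mTEC-IV, mTEC-I was the same in both replicates. Myo3b, an unconventional myosin of sensory cells, had 315.98 and 315.07 in mTEC-II and 99.88 to 144.61 in the 6 other libraries. Rap1gap, which switches off the small GTPase Rap1, had 309.17 and 303.97 in mTEC-II against 84.34 to 158.97. Relt, a member of the TNF receptor family, had 310.15 and 283.97 against 105.98 to 170.38. In all 3 peaks, as in each of the 632, the mTEC-II libraries lay clear of the rest.

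The remaining peaks of the 10 differed mainly in which population was lowest. The peak centred at the 3′ end of Vmo1 (chr11:70322969-70329261) also spans the start site of this gene. It had 279.0 and 301.75 in mTEC-II, against 139.41 and 146.02 in mTEC-III, 119.94 and 129.25 in mTEC-I, but 47.84 and 44.81 in mTEC-IV. The intronic peak of Fhad1 had 286.79 and 293.6 in mTEC-II and was also lowest in mTEC-IV, at 60.48 and 40.03. A peak in an intron of Kansl3, the gene of a subunit of a histone acetyltransferase complex, had 298.79 and 278.42 in mTEC-II and was lowest in mTEC-I, at 30.95 and 44.06. The intergenic peak 112076 bases from Thap1 had 346.48 and 325.07 in mTEC-II and 94.4 to 172.66 elsewhere.

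**Figure D3:**
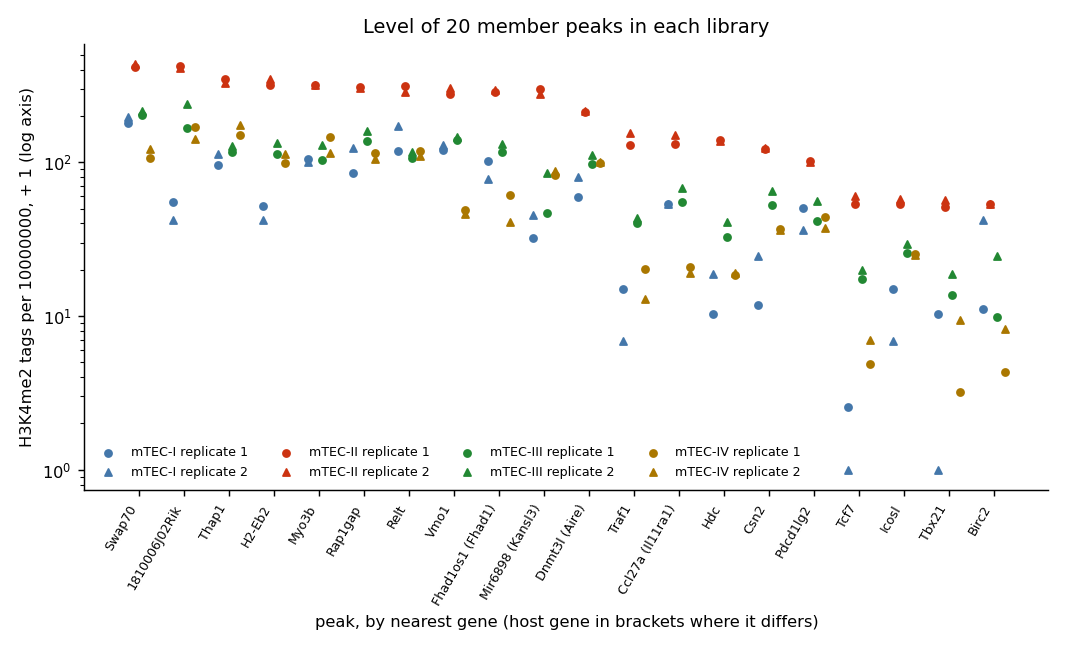
The vertical axis gives H3K4me2 tags per 10000000 plus 1 on a log axis, and each column is 1 of 20 peaks (the 10 of highest mTEC-II level and the strongest at genes of the fixed lists), named by nearest gene with the host gene in brackets where it differs. Circles are replicate 1 and triangles replicate 2, coloured by population. The mTEC-II points (red) are the top pair of every column, from 425.8 (mean) at Swap70 to 52.73 at Birc2.

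Of the 10 peaks with the highest ratios, 6 had an mTEC-II mean under the median of the 632 (51.4) and 4 lay above it. An intergenic peak 32193 bases from Fam209 had the highest ratio, 8.13, with 27.58 and 33.32 in mTEC-II, with 6.31 and 1.18 in mTEC-III, 6.19 and 0 in mTEC-I, and 0 and 1.19 in mTEC-IV. It stood barely above the level of 30, and its values outside mTEC-II rest on few tags. A peak in an exon of Inpp5b, which encodes an inositol phosphatase, had 60.34 and 70.35 in mTEC-II, against 7.57 and 9.42 in mTEC-III, 4.95 and 3.58 in mTEC-IV and 3.10 and 0 in mTEC-I. Its ratio was 7.69. The 10 highest ratios ran from 5.74 to 8.13 and lay at Wdr70, Fam204a, Ermard, Msc, Hoxc8, Gsdma3, Mkln1 and in an intron of Camk4 besides. The peak in Camk4 was the strongest of the 10, with 124.9 and 135.51 in mTEC-II and 9.90 to 27.08 elsewhere.

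Genes known from the Aire-expressing stage of mTEC carried 6 of the 632 peaks, out of 61 merged peaks at genes of this list (9.84%). Over all peaks 2.14% were chosen. The list was compiled with earlier results of these data known, so the share supports nothing on its own. Traf1, an adaptor of TNF receptors that NF-kappaB induces, had an intronic peak at 127.82 and 154.76 in mTEC-II (chr2:34810662-34814612), 39.11 and 42.39 in mTEC-III, 19.24 and 11.95 in mTEC-IV, and 13.93 and 5.88 in mTEC-I. Hdc, which makes histamine, had 139.5 and 136.25 in mTEC-II (chr2:126441020-126444842), 31.54 and 40.04 in mTEC-III and 9.29 to 17.92 in mTEC-I and mTEC-IV. Csn2, the milk protein beta-casein, had 120.68 and 122.18 in mTEC-II, with 51.73 and 64.18 in mTEC-III, 35.74 and 35.25 in mTEC-IV, and 10.83 and 23.5 in mTEC-I. In all 3 the order was mTEC-II, mTEC-III, then the rest.

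Another of the 6 lay in an exon of Aire, 327 bases from the start site of its neighbour Dnmt3l, which encodes a partner of DNA methyltransferases (chr10:77503091-77507627). It had 211.52 and 215.48 in mTEC-II, against 97.15 and 111.28 in mTEC-III, 97.87 and 99.17 in mTEC-IV, and 58.81 and 79.31 in mTEC-I, a ratio of 2.05. Pdcd1lg2, the PD-1 ligand PD-L2, had an upstream peak at 100.25 and 98.85 in mTEC-II and 35.25 to 55.35 elsewhere. Icosl, the ligand of the costimulatory receptor ICOS, had a peak 17829 bases away at 52.23 and 56.65 in mTEC-II and 5.88 to 28.26 elsewhere. Aire itself was the nearest gene of none of the 632.

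The other lists held fewer. MHC class II had 1 of 19 peaks (H2-Eb2), TNF and NF-kappaB genes 2 of 92 (Traf1 and Birc2, an inhibitor of apoptosis), and thymic epithelial transcription factors 2 of 98 (Tbx21 and Trp63). Chemokines and cytokines had 3 of 51. Of these, the peak nearest to Ccl27a, a skin-homing chemokine, lay in an exon of Il11ra1 and had 130.42 and 150.32 in mTEC-II, 52.62 to 66.53 in mTEC-I and mTEC-III, and 19.79 and 17.92 in mTEC-IV. Il12a, a subunit of interleukin 12, had 53.2 and 51.46 in mTEC-II in a distal peak, against 10.75 to 29.44 elsewhere. An intergenic peak 200337 bases from Il15, a cytokine for natural killer cells, had 41.2 and 44.43 against 6.57 to 24.73. None of the merged peaks at genes of the costimulation, microfold cell, basal, cornified, tuft cell, cortical, fibroblast or endothelium lists was among the 632. The costimulation list does not hold Icosl and Pdcd1lg2, which are counted under the Aire stage.

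Of the 632 peaks, 46 (7.28%) were centred within 1 kb of a start site, and the examples below were picked among them after their values were seen, from no list, so they show no theme of the whole. Tlr12, a toll-like receptor, had 146.96 and 154.39 in mTEC-II, 58.81 and 67.56 in mTEC-I, and 34.7 to 51.38 in mTEC-III and mTEC-IV. Tlr9, the receptor for unmethylated CpG DNA, had 69.43 and 71.09 in mTEC-II against 5.88 to 21.79 in the 6 others. Ccr7, a chemokine receptor that guides cells to lymphoid tissue, had 76.89 and 76.64 against 2.94 to 33.56. Here, as in each of the 632, both mTEC-II libraries lay above all 6 others. Ccr6, the receptor of Ccl20, had 83.7 and 74.05 against 0 to 25.23, and Gpr132 had 94.73 and 104.04 against 0 to 27.08, where the 0 in both is mTEC-I replicate 2. Spic, a transcription factor of red pulp macrophages, had 56.45 and 40.36 against 14.7 to 24.14.

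Further examples lay at genes known from other tissues. Mep1a, a protease of the gut and kidney brush border, had 111.28 and 108.48 in mTEC-II, with 29.65 and 55.93 in mTEC-III, and 5.88 to 16.49 in mTEC-I and mTEC-IV. Mstn had 101.22 and 94.78 in mTEC-II against 23.21 to 63 elsewhere, and Pln 111.28 and 87.75 against 27.48 to 37.94. Trdn, a calcium release protein of muscle, had 50.61 and 58.5 against 6.57 to 18.14. Pdyn, the precursor of dynorphin peptides in the brain, had 72.35 and 47.39 against 8.51 to 21.2, and Ptprn and Resp18, genes of endocrine secretory granules, had means of 36.9 ± 5.1 and 58.9 ± 5.2 (SD, n = 2). Npsr1 was the only gene with 3 of the peaks. The one at its start site had 117.12 and 105.52 in mTEC-II, against 49.2 and 58.88 in mTEC-III and 11.75 to 28.59 in mTEC-I and mTEC-IV. The other two lay in its introns at 52.23 and 57.76 and at 33.74 and 31.47.

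The values of blood cell genes stand beside these results. Among the marker genes of antigen-presenting blood cells, 11 had a merged peak, and none of these 16 peaks was among the 632. Their summed level was 994 and 1020 in mTEC-II, 706 and 734 in mTEC-I, 886 and 968 in mTEC-III, and in mTEC-IV 1270 and 1330. Ptprc, which encodes CD45, had 38.9 and 48.9 in mTEC-II, 30 to 35.2 in mTEC-I and mTEC-III, and 269 and 265 in mTEC-IV. Flt3, a receptor of dendritic cell precursors, had 87.9 and 89.6 in mTEC-II against 23.5 to 49.5 in mTEC-I and mTEC-III and 70.9 and 74.1 in mTEC-IV. Pax5, a regulator of B cells, had 167 and 189 in mTEC-II against 170 and 181 for mTEC-IV, 82 and 86 for mTEC-III, then 34.8 and 32.3 for mTEC-I. Others of the list were lower in mTEC-II than in mTEC-III: the integrin gene Itgax had 19.5 and 16.7 against 93.4 and 76, Itgam 25.9 and 23.3 against 43.5 and 34.7, and the macrophage gene Cd68 25 and 14.1 against 31.5 and 40. The markers of this list thus did not move one way. For Ms4a1, Xcr1, Siglech and Lyz2 no merged peak was found. Of 13 thymocyte genes 3 had merged peaks, 8 in all, and 1 of the 632 lay upstream of Tcf7, at 52.88 and 59.61 in mTEC-II and 0 to 18.84 elsewhere. The summed level of the thymocyte list was 476 and 468 in mTEC-II and 173 to 446 in the other libraries. This sum includes the chosen Tcf7 peak, which the rule picked for its level in mTEC-II, so its order is not read as a result. The part of such cells in the 632 peaks was not tested.

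Most of the 632 peaks were distal. Introns held 333 (52.7%, against 45.6% of all peaks), intergenic sequence 249 (39.4%, against 26.5%) and annotated promoters 24 (3.80%, against 18.2%). The median distance to the nearest start site was 24922 bases, against 4617 for all peaks, and 207 (32.8%, against 17.0%) lay over 50 kb away. None was centred in a CpG island, against 6.92% of all peaks. The centre fell in a repeat in 185 (29.3%, against 13.4%), and in an LTR element in 44 (6.96%, against 2.41%). Within introns and intergenic sequence alone the repeat share was 31.8%, against 18.5%. The X chromosome held 2 (0.316%, against 1.87%).

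Other sets of peaks shared part of this profile. The 3818 other peaks merged from the deposited mTEC-II list alone had 8.77% within 1 kb of a start site, a median distance of 24489 bases and 1.02% in CpG islands, close to the chosen ones. Their repeat share of 21.6% and LTR share of 3.88% were lower, as was their median width of 1279 bases against 1651. The peaks strongest in mTEC-IV alone were as distal, with 3.70% within 1 kb and a median of 28231 bases, and had repeats at 24.1% and LTR elements at 3.67%. Those strongest in mTEC-III alone had 12.2% within 1 kb, repeats at 24.1% and LTR elements at 4.75%. CpG islands held 0% of these and 0.132% of those strongest in mTEC-IV alone. The X chromosome held 0.679% and 0.76% of these sets, 0.752% of the mTEC-I set and 1.47% of the other mTEC-II list peaks. The 133 strongest in mTEC-I alone were unlike the others, with 42.9% within 1 kb and repeats at 8.27%. These shares were not tested, since every set was chosen on its levels.

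**Figure D4:**
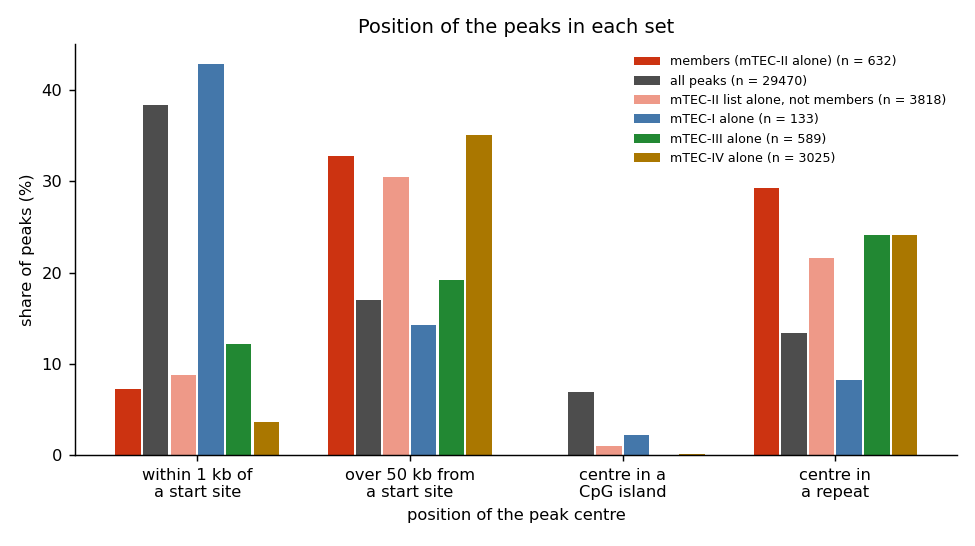
The bars give the share of peaks (%, from 0) whose centre lies within 1 kb of a start site, over 50 kb from one, in a CpG island or in a repeat, for the 632 chosen peaks and 5 other sets. The chosen peaks (red) have 7.28%, 32.8%, 0% and 29.3%, against 38.4%, 17.0%, 6.92% and 13.4% of all peaks (dark grey).

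The 632 peaks had 592 nearest genes: 553 genes had 1, 38 had 2 and Npsr1 had 3. Within 50 kb of each other lay 77 of the peaks, in 38 groups. The largest group held 3 peaks upstream of and in Txndc15, a thioredoxin domain gene, with mTEC-II means of 41.4 ± 8.5, 91.7 ± 8.5 and 42.8 ± 2.8 (SD, n = 2). The annotation placed 382 peaks in a named host gene, and in 87 of these the host was not the nearest gene. The assignment to a nearest gene is therefore by distance alone.

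All 632 peaks overlapped the authors' deposited mTEC-II list by at least 1 base. None overlapped the mTEC-I list, 12 (1.90%) overlapped the mTEC-III list and 8 (1.27%) the mTEC-IV list. In all, 615 (97.3%) had been merged from the mTEC-II list alone, and they were 13.9% of the 4433 such peaks among all 29470. The mTEC-II and mTEC-III lists gave 1.42% of the 632 (against 4.34% of all peaks), and the mTEC-II and mTEC-IV lists 0.791% (against 6.69%). The mTEC-II, mTEC-III and mTEC-IV lists together gave 0.475% (against 30.8%). The rule kept mTEC-I, mTEC-III and mTEC-IV low against mTEC-II. These overlaps therefore follow in part from the choice and are a description. The authors' fold over control, each peak's own value in the deposited mTEC-II list, had a median of 13.1 in the 632 and 16.0 in that entire list of 23949 peaks. The mTEC-I list had 7036 peaks, against 19321 and 22757 for mTEC-III and mTEC-IV, and mTEC-I had the shallowest libraries.

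The rule read mTEC-I, mTEC-III and mTEC-IV as well, since the highest of their means is the denominator of its ratio. It kept each of them low against mTEC-II, and no such limit holds for the 29469 tested peaks that serve as background. The counts that follow are therefore a description of the 632 peaks, and nothing is read from their distance to the background. In mTEC-III against mTEC-I, limma with Benjamini-Hochberg adjustment called 144 higher (22.8%, against 17.1% of all tested peaks) and 5 lower (0.791%, against 13.7%). The median log2 change was 0.55, against 0.03 over all peaks. With cyclic loess it was 0.18, against 0.03, with 106 higher and 17 lower. Over all tested peaks cyclic loess called 4997 higher and 4098 lower. In the 3817 tested peaks of the mTEC-II list alone that were not chosen, the median was -0.28, with 459 higher and 815 lower. Of the 632, 92 stood at 0 in mTEC-I replicate 2, and the part of its depth in this result was not tested. Without that library the median was 0.36, against 0.01 over all tested peaks. Without mTEC-I replicate 1 it was 0.51, against 0.03. Without 1 library of the other populations it ran from 0.42 to 0.67, against -0.01 to 0.08 over all tested peaks.

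By the smallest p, the peaks higher in mTEC-III than in mTEC-I were those near 1810006J02Rik (2.05 ± 0.18 on the log2 scale, SE, adjusted p = 2e-05, limma), H2-Eb2 (1.39 ± 0.16, adjusted p = 0.0001) and in an intron of Lsp1, a leukocyte actin-binding protein (2.56 ± 0.30, adjusted p = 0.00011). Lsp1 had 119.39 and 121.81 in mTEC-II, with 47.94 and 56.52 in mTEC-III, 32.44 and 30.47 in mTEC-IV, and 10.83 and 5.88 in mTEC-I. Of the genes named above, Traf1 (2.04 ± 0.39, adjusted p = 0.0021), Hdc (1.40 ± 0.32, adjusted p = 0.0067) and Csn2 (1.78 ± 0.32, adjusted p = 0.0014) were also called higher in mTEC-III. The few in the other direction included a peak 21773 bases from S100a16, a calcium-binding protein, with 180.7 and 211.41 in mTEC-II, 73.51 and 79.31 in mTEC-I, 27.76 and 40.04 in mTEC-III, and in mTEC-IV 20.34 and 13.14. Its change in mTEC-III against mTEC-I was -1.17 ± 0.26 (adjusted p = 0.0057, limma), and it missed the threshold without mTEC-III replicate 1.

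In mTEC-IV against mTEC-III, 6 of the 632 peaks were higher in mTEC-IV (0.949%, against 22% of all tested peaks) and 135 lower (21.4%, against 13.3%), with a median of -0.65. Cyclic loess gave 3 higher and 411 lower with a median of -1.79, and edgeR 235 lower. Over all tested peaks cyclic loess gave 4247 higher and 5073 lower, with a median of -0.03. There edgeR gave 8247 higher and 5357 lower. The median of the unchosen peaks of the mTEC-II list alone was -0.13. Lower calls outnumbered higher ones whichever library was left out, and higher ones ranged from 1 to 16. Without 1 library the median ran from -0.76 to -0.54, against -0.01 to 0.08 over all tested peaks. Vmo1 was lower in mTEC-IV by the smallest p (-1.60 ± 0.13, adjusted p = 7.6e-06, limma), followed by Os9 and Swap70. The peak upstream of Os9, an endoplasmic reticulum lectin, had 141.45 and 164.39 in mTEC-II, against 68.76 and 75.95 in mTEC-III, 26.31 and 23.5 in mTEC-I, and 20.34 and 13.74 in mTEC-IV. Its change was -2.05 ± 0.25 (adjusted p = 0.00011, limma), and that of Swap70 was -0.88 ± 0.12 (adjusted p = 0.00018). A peak near Olig2, a neural transcription factor, was higher in mTEC-IV than in mTEC-III (0.81 ± 0.24, adjusted p = 0.023, limma), but that call was lost in 5 of the fits without 1 library.

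mTEC-IV and mTEC-I split evenly: 88 of the 632 were higher in mTEC-IV (13.9%, against 25.5% of all tested peaks) and 90 lower (14.2%, against 15.2%), with a median of -0.04. This balance depended on the scaling, since cyclic loess gave 25 higher and 343 lower, with a median of -1.42. Over all tested peaks cyclic loess gave 5195 higher and 5370 lower, with a median of -0.01. In the 3817 unchosen peaks of the mTEC-II list alone, 447 were higher and 1278 lower. Without mTEC-I replicates 1 and 2 the median was 0.04 and -0.18, against 0.06 and 0.01 over all tested peaks. Without 1 library of the other populations it lay between -0.05 and -0.03, against 0.01 to 0.03. Among the peaks higher in mTEC-IV was one in an intron of Rnf216, a ubiquitin ligase, with 80.78 and 97.74 in mTEC-II, 32.44 and 29.87 in mTEC-IV, 17.03 and 30.03 in mTEC-III, but 3.10 and 2.94 in mTEC-I. The mTEC-I mean lies under 3.67, the level of 3 tags over both libraries, so the size of the fitted change of 3.00 ± 0.37 (adjusted p = 7.2e-05, limma) depends on the pseudocount. Lower in mTEC-IV was a peak near Serpinb9, an inhibitor of granzyme B, with 78.19 and 108.11 in mTEC-II, 33.27 and 58.75 in mTEC-I, 31.54 and 50.64 in mTEC-III, and in mTEC-IV 7.70 and 7.17. Its change was -2.42 ± 0.35 (adjusted p = 0.00021, limma). S100a16 was lower too (-2.15 ± 0.26, adjusted p = 6.6e-05), and Vmo1 (-1.41 ± 0.13, adjusted p = 1.1e-05).

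Peaks that failed the rule at the same genes were read for mTEC-II next. The rule kept peaks above its ratio out of this set and out of its background alike. The 632 peaks shared their nearest gene with 1618 other tested peaks, at 508 genes. Against the mean of the other 3 populations, 278 of these were higher in mTEC-II (17.2%, against 8.33% of all peaks outside the 632) and 69 lower (4.26%, against 7.39%), with a median log2 change of 0.12, against -0.06. The backgrounds in this paragraph are not matched for position. Start-site peaks were 11284 of the 28837 tested peaks outside the 632, and 3.05% of them were higher. The part of position in these shares was not tested. The peaks over 10 kb from every chosen peak were read as well, an alternative added after the data were seen, and their background is the same for all such peaks. There 184 of 1292 were higher (14.2%, against 8.08%) and 61 lower (4.72%, against 7.46%). The number of calls rested on both mTEC-II libraries: without replicate 1, 30 were higher (1.85%, against 0.652%), and without replicate 2, 32 (1.98%, against 0.666%), while the medians were 0.13 and 0.12. Without mTEC-I replicates 1 and 2 the medians were 0.15 and 0.09, against -0.05 and -0.07 over all peaks outside the 632. Without either mTEC-IV library the median was 0.14, against -0.05.

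**Figure D5:**
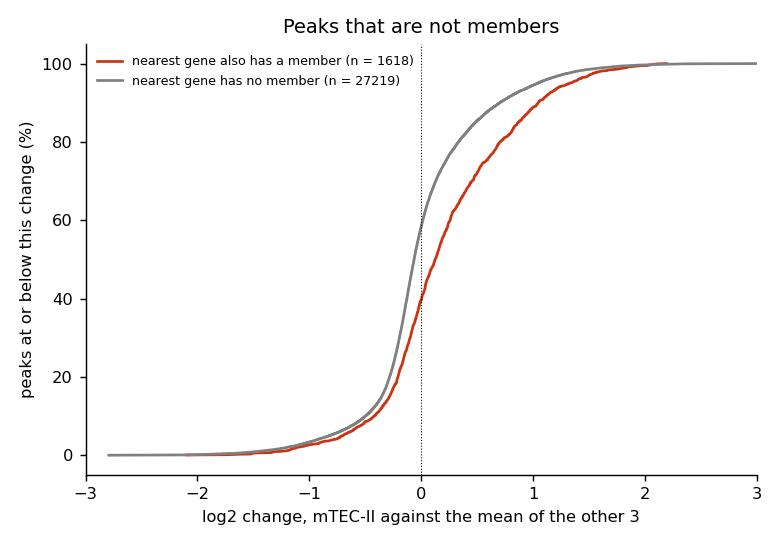
Each curve gives the share of peaks (%) at or below a log2 change of mTEC-II against the mean of the other 3 populations, for peaks outside the 632. The curve of 1618 peaks whose nearest gene also has a chosen peak (red) lies to the right of that of the 27219 others (grey) over most of the range, with a median of 0.12.

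Of these 1618 peaks, the one with the smallest p lay in an intron of Etv6, a transcription factor of the ETS family, and was nearest to Bcl2l14. It had 286.14 and 281.01 in mTEC-II, 169.9 and 143.98 in mTEC-IV, 95.95 and 105.75 in mTEC-I, and 85.16 and 95.38 in mTEC-III, a change of 1.33 ± 0.11 (adjusted p = 8.5e-05, limma). The promoter of Il13, a cytokine of type 2 immunity, had 284.52 and 275.09 in mTEC-II, with 128.69 and 157.21 in mTEC-III, 136.36 and 158.91 in mTEC-IV, and 99.82 and 91.06 in mTEC-I. It was higher in mTEC-II by 1.15 ± 0.11 (adjusted p = 0.00015, limma) and missed the rule with a ratio of 1.90. The Rnf183 peak, at the gene of a ubiquitin ligase, had 239.1 and 258.43 in mTEC-II but 174.74 and 208.43 in mTEC-III, and its change was 1.17 ± 0.12 (adjusted p = 0.00016, limma). The peak near Fndc3a had 126.85 and 129.21 in mTEC-II and 89.76 and 96.94 in mTEC-I, against 15.95 to 38.27 in mTEC-III and mTEC-IV. Among those called lower, the peak nearest to Gm608 had 9.41 and 13.33 in mTEC-II and 117.11 and 111.72 in mTEC-IV. It had 10.83 and 29.38 in mTEC-I, and 72.55 and 56.52 in mTEC-III. An intronic peak of Plekhg1 had 22.06 and 27.4 in mTEC-II and 185.46 and 212.55 in mTEC-III. In mTEC-IV it had 38.49 and 41.82, and in mTEC-I 21.67 and 23.5, so mTEC-II did not lie below mTEC-I there. Both calls were lost without mTEC-II replicate 1.

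At genes of the fixed lists the other peaks did not all follow the chosen one. At Pdcd1lg2, 3 of 6 other peaks were higher in mTEC-II, among them the promoter (1.02 ± 0.20, adjusted p = 0.0065, limma), but its mTEC-I mean of 57.85 was close to the 67.91 of mTEC-II. At Il12a an intronic peak stood at a mean of 178.5 in mTEC-II against 71.0 to 91.3 elsewhere (1.22 ± 0.20, adjusted p = 0.0021, limma). The promoter of Traf1 had a mean of 259.5 in mTEC-II and 250.7 in mTEC-III (0.26 ± 0.12, adjusted p = 0.18, limma), while a peak 22813 bases from the start, with a mean of 47.21 in mTEC-II, was called higher (1.43 ± 0.36, adjusted p = 0.018) and the third was not (0.93 ± 0.36, adjusted p = 0.095). At Hdc, an intronic peak 20903 bases from the start was strongest in mTEC-IV, at 122.5, and did not pass the test. The other Hdc peak, in intergenic sequence, had a mean of 35.94 in mTEC-II and was called higher (1.07 ± 0.31, adjusted p = 0.033, limma). At Tcf7, 3 of 4 other peaks were called higher and the promoter was not (0.16 ± 0.18, adjusted p = 0.57, limma). Of 9 other peaks of Trp63, the regulator of stratified epithelia, 1 was higher in mTEC-II and 1 lower. Over all peaks outside the 632, 8.33% were higher in mTEC-II and 7.39% lower. Over whole lists, other peaks higher and lower numbered 16 and 3 of 55 for the Aire stage, 10 and 1 of 18 for MHC class II, 20 and 9 of 90 for TNF and NF-kappaB, and 10 and 3 of 48 for chemokines and cytokines. They were 7 and 2 of 25 for cortical, 4 and 2 of 27 for basal and 4 and 4 of 25 for costimulation genes. Lower calls were the more frequent for thymic epithelial transcription factors (6 and 20 of 96), tuft cells (2 and 17 of 39), cornified epithelium (1 and 6 of 20), microfold cells (2 and 5 of 17) and endothelium (1 and 4 of 22). Antigen-presenting blood cell genes had 3 and 0 of 16, thymocyte genes 3 and 0 of 7, and fibroblast genes 0 and 0 of 10 by limma. At an unadjusted p under 0.05 these last were 4 and 2, 5 and 0, and 1 and 0, and with edgeR 5 and 2, 5 and 0, and 2 and 0. Those lists were compiled with earlier results of these data known. Each call is against a mean, so 1 population alone can produce it. The summed level of tuft cell genes was 2080 and 2230 in mTEC-II, against 2010 to 2350 in mTEC-I and mTEC-III. In mTEC-IV it was 8120 and 8450. That of cornified epithelium genes was 2120 and 2190 in mTEC-II, against 2120 to 2280 in mTEC-I and mTEC-IV. In mTEC-III it was 3860 and 3830. Thymic epithelial transcription factors had 14400 and 14700 in mTEC-II and 15000 to 19500 elsewhere.

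Start sites of the same genes were read separately. Where a chosen peak lay over 1 kb from the start of its nearest gene, 310 start-site peaks of 290 such genes were tested. Of these, 23 were higher in mTEC-II (7.42%, against 3.05% of all start-site peaks outside the 632) and 17 lower (5.48%, against 6.32%), with a median of -0.04 against -0.10. The split depended on the scaling. With equal totals in merged peaks it was 33 higher and 5 lower, with a median of 0.04. With cyclic loess it was 26 and 8, with a median of 0.05. All start-site peaks outside the 632 moved the same way. Of these, 344 were higher and 713 lower in the main fit. With equal totals 541 and 364 were, and with cyclic loess 441 and 311, with a median of -0.02 in both. Fewer peaks were called without 1 mTEC-II library, in this set and over all start-site peaks outside the 632 alike. Without mTEC-II replicates 1 and 2 the median was -0.02 in both, against -0.09 and -0.11. Without mTEC-I replicates 1 and 2 it was -0.04 and -0.03, against -0.10 and -0.11. Without 1 library of mTEC-III or mTEC-IV it lay between -0.05 and -0.02, against -0.12 to -0.09. Whether start sites and distal peaks of these genes differ in their change was not tested.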

How the data were processed

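H3K4me2 was measured in 8 libraries, 2 from each of 4 sorted mTEC populations. The 8 whole-cell extract samples were not analysed here. The submitters' processing notes name Picard 1.108, bcl2fastq 2.15.0.4 and build mm9, and the sources used here name no aligner. Per the file headers, HOMER's annotatePeaks made the merged table, which holds the deposited signal in tags per 10000000 of each library. The deposited peak lists, with replicates combined, give the authors' signal and their fold (ratio) over a control.

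Population means were taken over the 2 libraries. Peaks reaching 10 tags per 10000000 in 2 or more libraries (29469) were tested with limma 3.58.1 (R 4.3.3, limma-trend) on log2(value + 1) in 1 fit over all 8 libraries, with 4 residual and 7.75 prior degrees of freedom. Benjamini-Hochberg adjusted p-values under 0.05 over all tested peaks were called. A change on this scale understates the change of low peaks. The design named edgeR for raw counts and limma for normalized values, and the deposited values are normalized. edgeR 4.0.16 on tags recovered from the signal (steps of 0.5 tags, 2 counts per tag, and 100% of values within 0.1 of a step) was an alternative. The script was tested on simulated data. Figures used matplotlib 3.10.9.

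The chosen peaks and 15 gene lists were picked with earlier results of these data known. Named peaks are the 10 of highest mTEC-II level, the 10 of highest ratio, genes with most members, members at list genes, those next to each threshold, the 3 of smallest p per direction in each comparison, the 5 per direction at other peaks of the same genes, and the largest cluster. A few others are marked as chosen after their values were seen. Some of these peaks and list genes are not reported here. Each peak belongs to the gene of its nearest start site, per the file's annotation. The replicate numbers do not pair the populations: correlations of replicate deviations ran from -0.013 to 0.016. Precision is limited by 2 libraries per population and by depth.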

Additional observations from a re-analysis of the deposited data

How the results depend on the processing

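Membership was 1420 peaks at a ratio of 1.5, 193 at a ratio of 3, 239 at a level of 60, 737 with equal totals in merged peaks, and 554 to 672 with 1 library left out, of which 83.9% to 97.6% of the 632 remained. Both mTEC-II libraries exceeded 2 times the highest other library in 341. With an overlap of at least 1 in 2 of the peak's length, 1 and 0 peaks overlapped the mTEC-III and mTEC-IV lists.

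In mTEC-III against mTEC-I, lower calls numbered 8 with a pseudocount of 5, 17 with cyclic loess and 8 with edgeR. Leaving out 1 library gave 55 to 236 higher and 2 to 27 lower. In mTEC-IV against mTEC-I, cyclic loess gave 25 higher and 343 lower, and leaving out 1 library 28 to 186 higher and 55 to 146 lower. In mTEC-IV against mTEC-III, cyclic loess gave 3 higher and 411 lower, edgeR 235 lower, and leaving out 1 library 1 to 16 higher and 41 to 264 lower. Where a library was left out, the lone library left was assumed to vary like the other groups. The number of calls over all tested peaks changed with the scaling, the method and the library left out too. These counts and those below are therefore not read as changes of the chosen peaks or their genes alone.

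For the other peaks of the same genes, edgeR gave 481 higher and 159 lower, the peaks over 10 kb from every chosen one 184 higher, those within 20 kb of the start site 61 and 15 of 323, and leaving out 1 library 30 to 512 and 6 to 183. For start-site peaks, edgeR gave 39 higher and 32 lower, equal totals 5 lower, cyclic loess 8 lower, over 10 kb from every chosen peak 13 higher, within 20 kb 12 and 7 of 123, and leaving out 1 library 1 to 50 and 1 to 45. The subsets by distance hold fewer peaks by construction. For the rest the cause was not tested.

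With the replicate number as a block, which the labels do not tie to a shared mouse or day, the calls were 145 and 5, 90 and 85, 5 and 130, 259 and 71, and 23 and 16 in the same order of comparisons (mTEC-IV against mTEC-I before mTEC-IV against mTEC-III), and the block moved no count by over 1.5 times. Of 392 alternatives for single named peaks, 375 kept their call, 16 lost it and 1 changed sign: the Rnf144b peak in mTEC-IV against mTEC-III, 1.29 ± 0.41 in the report's fit, was -0.19 with cyclic loess. A low depth in mTEC-I replicate 2 limits every reading of low levels there.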
